A study of Setaria viridis with 40 samples.

Results

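The large heat shock proteins of *Setaria viridis* are described here by transcript level in mid-leaf tissue of strain ME034 under control, high light and high temperature treatments. The genes are the 84 that the study lists in its category of large heat shock proteins, of 38239 genes in the files, and comprise 32 HSP70, 13 HSP90, 38 HSP40 (DNAJ) and 1 HSP100 gene. A gene was tested if it had at least 10 counts in at least 4 libraries, which held for 59 of the 84 (17 HSP70, 11 HSP90, 30 HSP40 and 1 HSP100) and for 14293 genes in all. Of the 25 genes that were not tested, 16 had no read in the count table, 5 had at most 1 to 9 reads and 4 reached 10 reads. Gene names are those of the study's list and were mostly taken over from Arabidopsis.

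HSP70 proteins bind exposed hydrophobic stretches of unfolded proteins in a cycle driven by ATP, and HSP40 proteins, named after bacterial DnaJ, stimulate their ATPase and bring them clients. HSP90 proteins act later, on nearly folded clients such as kinases and receptors, while HSP100 proteins pull aggregated proteins apart. In plants each of the HSP70 and HSP90 classes has members in the cytosol, the endoplasmic reticulum, the mitochondria and the plastids, and part of them is induced by heat through heat shock transcription factors.

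All plants were unmodified ME034, 13 days old when treatment began, and had grown at 31 °C, 50% humidity, a 12 h photoperiod and 250 µmol photons m-2 s-1. Control leaves (ctrl) stayed in these conditions, HT leaves were moved to 40 °C and HL leaves to a photon flux of 900 in the same unit, and segments were taken before treatment (ctrl_0h) and after 1, 2 and 4 h of each. Each of the 10 conditions had 4 replicates (A to D), and each replicate pooled segments of 2 cm from 2 plants, so that the 40 libraries measure pairs of plants and p-values measure the spread between such pools. Libraries held 1422507 to 4901131 counts (median 3694586) of 3′ tag reads. Levels are given as TMM-normalised CPM (reads of a gene as a share of the effective library total), which are not scaled by gene length and are therefore compared between conditions and not between genes. Less RNA per cell and fewer cells of a type cannot be told apart in these leaf segments.

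The leaf identity and the libraries were checked before the comparisons. Transcripts of C4 leaf genes were present in every library, with PPDK (Sevir.3G253900) at 5554 to 17398 and NADP-ME (Sevir.5G132500) at 1258 to 8369 CPM, whereas Sevir.5G145500, named PEPC_A, was at 13.2 to 82.2. A single count column headed HT_1h holds the values of an HL_1h library and was not used, so that tests at HL_1h rest on 3 libraries while levels are shown for 4. Libraries carried 1 of 2 second-index sequences. Index AK10751 was in 0 of 4 libraries of ctrl_2h and of ctrl_4h, in 1 of HL_2h, in 2 of HT_2h and in 3 each of HL_4h and HT_4h, so index and treatment overlap in part at 2 and 4 h. In a fit with the index as a term, chosen after seeing the data, the members called up and down were 11 and 3 at HL_1h, 27 and 7 at HL_2h, 25 and 5 at HL_4h, 24 and 2 at HT_1h, 18 and 1 at HT_2h and 6 and 3 at HT_4h. The same reads without the index gave 9 and 3, 27 and 6, and 24 and 6 at the HL times and 23 and 1, 16 and 1, and 9 and 3 at the HT times. Over all genes the index took the calls up and down at HT_4h from 583 and 783 to 335 and 566, and at HL_4h from 1911 and 1788 to 1651 and 1673. At HT_2h these calls went from 764 and 760 to 616 and 540, and at HL_2h from 2354 and 1962 to 2353 and 2025.

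At HT_1h the HSP90 and HSP70 classes rose broadly and the HSP40 class did so in few members. Of the 59 tested members 23 were up-regulated and 1 was down-regulated (edgeR quasi-likelihood test, adjusted p under 0.05), where 5.07% of all tested genes were called up and 5.41% down. The rising members were 10 of 11 HSP90, 10 of 17 HSP70 and 3 of 30 HSP40 genes. At HT_2h 16 members were up (27.1%, background 5.38%) and 1 was down (1.69%, background 5.37%). At HT_4h 9 were up (15.3%, background 4.22%) and 4 were down (6.78%, close to the background of 5.6%). With library totals in place of TMM the HT_4h members were 13 up and 3 down, and all genes went from 603 up and 801 down to 713 and 548. The HSP90 count went from 10 at HT_1h to 7 at HT_2h, and at HT_4h edgeR called 0 in either direction, although 3 had an unadjusted p under 0.05 and DESeq2 called 1. The median log2 fold change of the HSP90 class was 1.94, 0.94 and 0.20 at the successive HT times and that of the HSP70 class 1.08, 0.48 and 0.10, with medians of all tested genes between -0.02 and 0.01. That of the HSP40 class was -0.07, -0.04 and 0.24.

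Under high light the members were called later. At HL_1h 9 members were up (15.3%, background 9.29%) and 2 were down (3.39%, background 9.08%). At HL_2h 27 were up (45.8%, background 16.5%) and 6 were down (10.2%, background 13.9%). At HL_4h 25 were up (42.4%, background 13.5%) and 6 were down (10.2%, background 12.6%). The HSP70 class had 4, 10 and 10 members up at the successive HL times and the HSP90 class 2, 7 and 7, out of 17 and 11. Every member that edgeR called down under HL was an HSP40 gene, with 2, 6 and 6 of 30 down against 3, 10 and 8 up. Median log2 fold changes were 0.41, 0.81 and 0.86 for HSP70, 0.44, 1.08 and 0.97 for HSP90 and 0.05, 0.24 and 0.20 for HSP40. With library totals in place of TMM 29 members were up and 5 down at HL_2h and 34 up and 4 down at HL_4h, while all genes went from 2361 up and 1983 down to 2787 and 1540 at HL_2h and from 1930 and 1797 to 3913 and 949 at HL_4h. HL and HT were tested against the same control libraries, so their counts are not independent of each other.

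**Figure D1:**
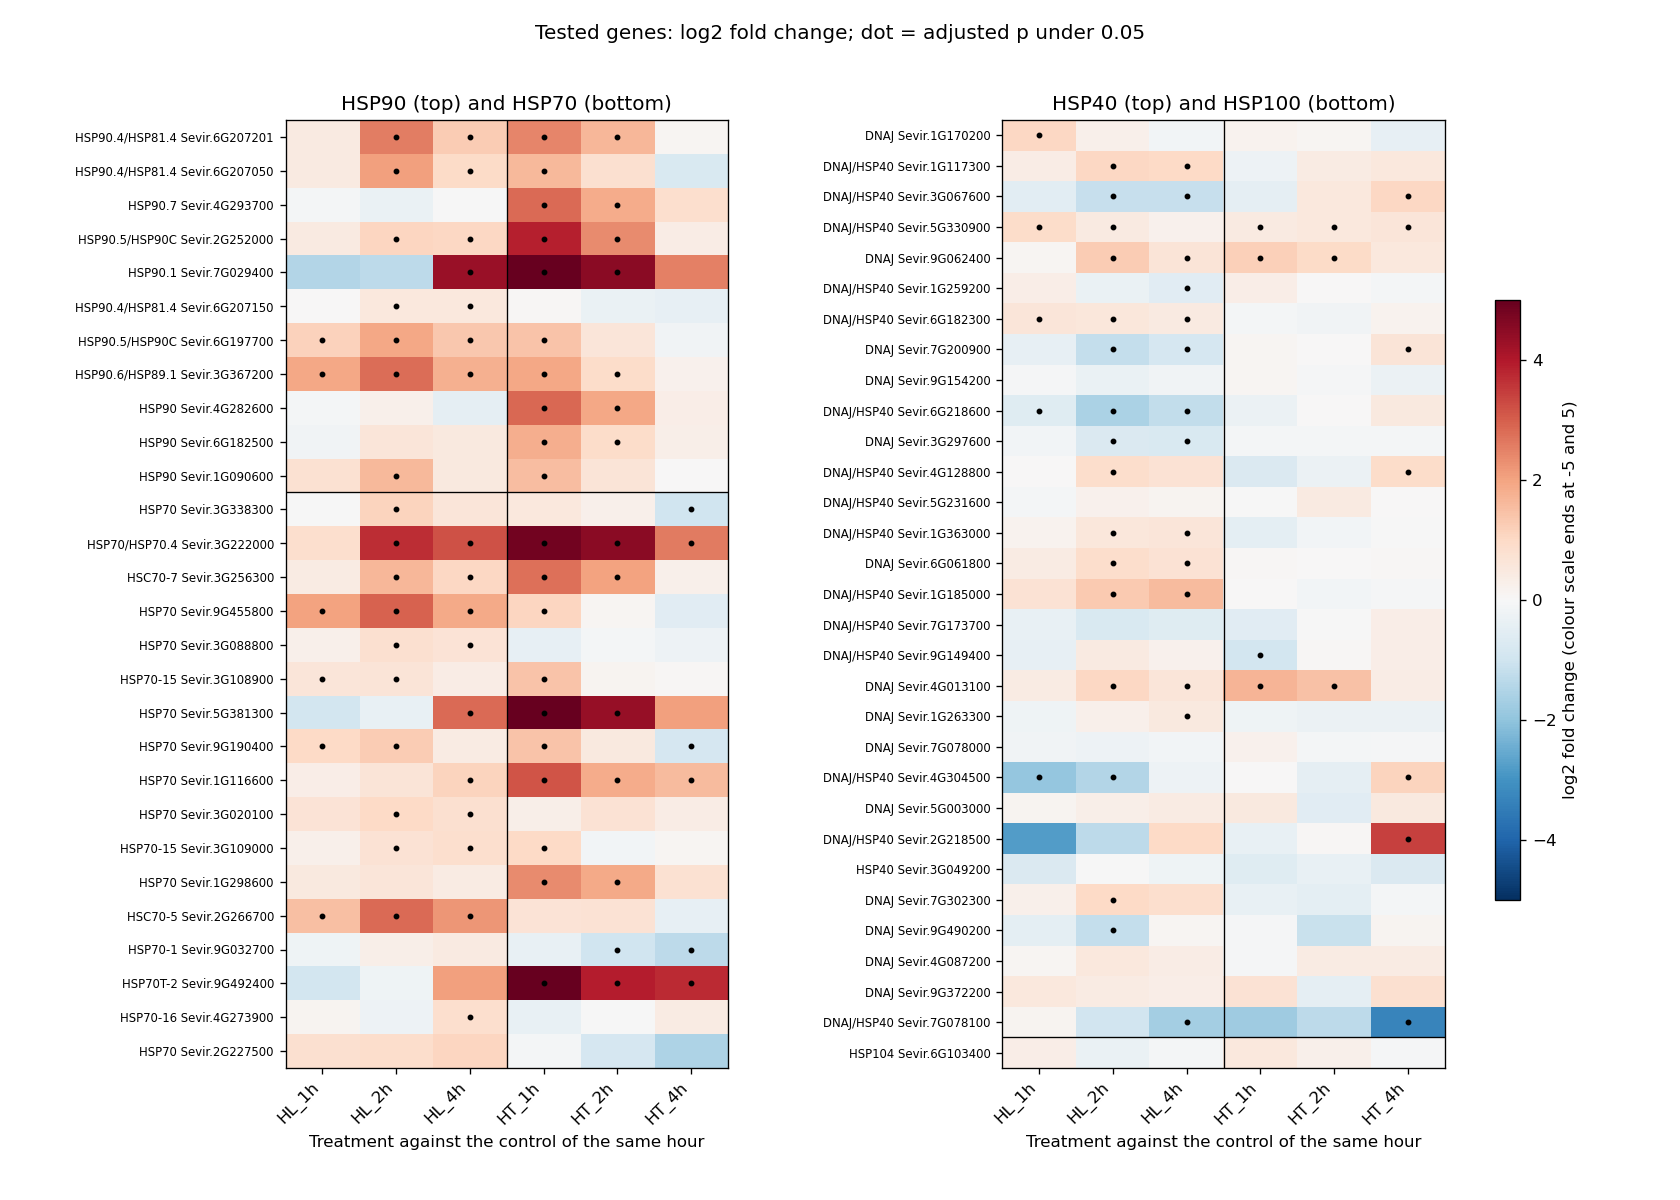
Heat map of log2 fold changes of the 59 tested genes (rows, by class) in the 6 treated conditions, each against control leaves of its hour (columns), with the colour scale ended at -5 and 5 and a dot for an adjusted p under 0.05 in edgeR. Dots fill most HSP90 and HSP70 rows at HT_1h and at HL_2h and HL_4h, and the blue cells with dots under HL are all HSP40 genes.

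The reads of each class were also summed by library, where genes with many reads weigh most. The HSP90 sum was 8452, 6909.6, 6069 and 7952 CPM at HT_1h (replicates A to D) against 1054, 1185, 1448 and 1904 at ctrl_1h, a ratio of means of 5.25. At HT_2h it was 1118 to 1685 against 379 to 607 (ratio 2.53), and at HT_4h 547 to 618 against 420.3 to 630. The groups lay apart at 1 and 2 h and overlapped at 4 h. Under HL the HSP90 sum was 1369.6 to 2789 at 1 h, which overlapped the control, 1539 to 2206 at 2 h (ratio 3.61) and 759 to 1386 at 4 h (ratio 1.93), both above the control libraries.

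The HSP70 sum was 14621, 12266, 10657 and 12931 at HT_1h against 3478, 3556, 4552 and 5575 at ctrl_1h (ratio 2.94). At HT_2h it was 2537 to 4822 against 1748 to 2756, and at HT_4h 1392 to 1976 against 2039 to 3276 (ratio 0.625). It thus lay above the control libraries at 1 h, overlapped them at 2 h and lay below all of them at 4 h. The single gene Sevir.3G338300 made up 59.9% of the HSP70 reads at HT_4h, so the sum there mostly follows that gene. Of the 17 tested HSP70 genes 3 were called up and 3 down at HT_4h. Under HL the HSP70 sum was 5144 to 6333 at 2 h (ratio 2.34), above the control, and overlapped the control at 1 and 4 h. The HSP40 sum moved less, with ratios of 1.12 to 1.23 under HT and 1.02 to 1.30 under HL.

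**Figure D2:**
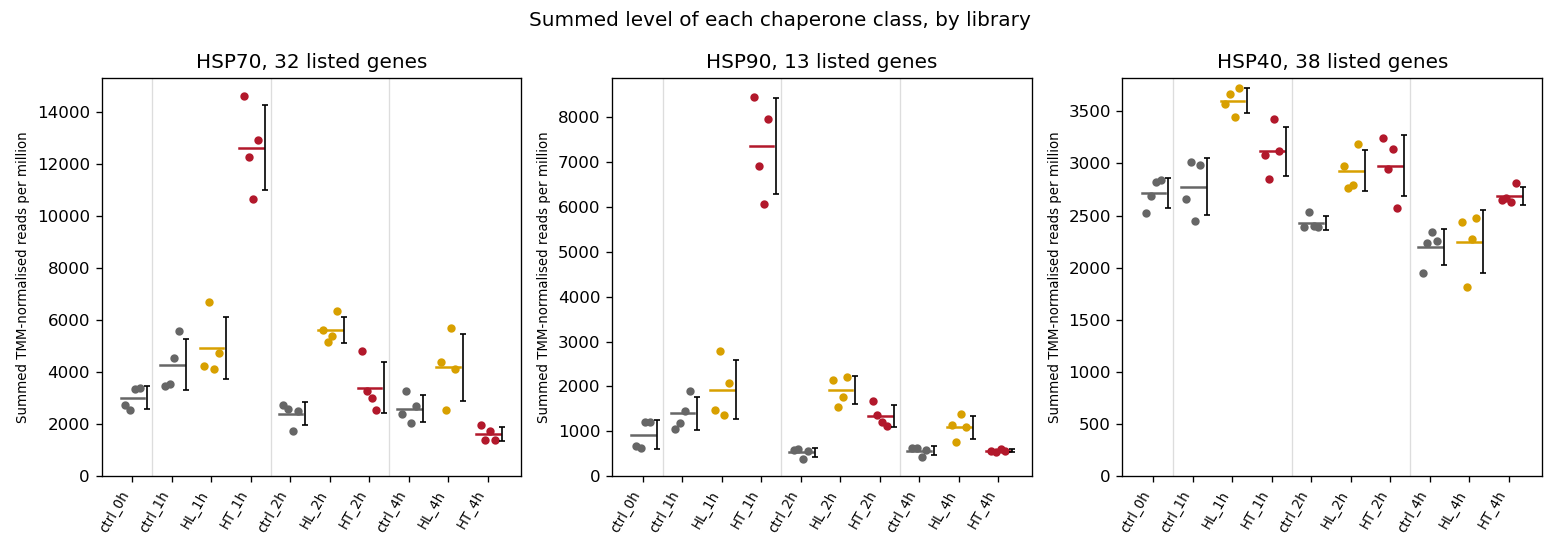
Summed TMM-normalised CPM of the listed HSP70, HSP90 and HSP40 genes in each library (points) of the 10 conditions, with the mean (line) and SD (bar, n = 4). HT_1h stands above every other condition for HSP70 (10657 to 14621) and HSP90 (6069 to 8452) but not for HSP40 (2850.4 to 3425).

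A few genes carried most of these reads. Sevir.3G338300, an HSP70 gene with no further name in the list and the highest mean of its class, made up 76.5% of the HSP70 reads at ctrl_1h and 37.6% at HT_1h, where Sevir.3G222000 (HSP70.4) reached 30%. Sevir.3G338300 was at 5727, 4825, 3451 and 4998 at HT_1h against 2601, 2586, 3422 and 4519.8 at ctrl_1h. These groups overlapped (log2 fold change 0.53 ± 0.25 (SE), edgeR adjusted p = 0.183). At HL_2h it was at 3864, 3675, 3703 and 4346 against 2085, 1934, 1239 and 1889 in the control and had risen (1.12 ± 0.25, adjusted p = 0.000606). At HT_4h it was at 1345, 798, 1022 and 731 against 1722, 2543, 1468 and 2047, below every control library (-0.998 ± 0.25, adjusted p = 0.00903), a call lost without HT_4h B (-0.88) or D (-0.85).

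HSP70.4 was up at all 3 HT times. At HT_1h Sevir.3G222000 was at 4769.7, 3723, 3319 and 3350.4 CPM against 69.7, 125, 171 and 173 at ctrl_1h (log2 fold change 4.82 ± 0.58, edgeR adjusted p = 1.2e-07). After 2 h it was at 348, 216, 145 and 94.6 against 10.9, 10.7, 6.33 and 7.35 (4.50 ± 0.61, adjusted p = 2.46e-06). At HT_4h it was at 21.3, 24, 18.6 and 26.6 against 4.83, 2.94, 4.82 and 2.11 (2.61 ± 0.65, adjusted p = 0.00826). HT and control libraries did not overlap at any of these times, while the level in HT leaves and that in control leaves both became lower with time. Under HL it was at 118, 459, 149 and 309 at 1 h, which overlapped the control, and at 173, 54.1, 64.4 and 171 at 2 h (3.70 ± 0.60, adjusted p = 6.89e-06). The 2 h libraries lay above the control. At HL_4h it was at 9.62, 34.3, 76.5 and 11.6 (3.17 ± 0.64, adjusted p = 0.000221), all above the control, and the log2 fold change was 2.35 without HL_4h C.

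Further HSP70 genes rose under HT from lower control levels. Sevir.5G381300 was at 889.5, 854, 1342 and 1434 at HT_1h against 3.25, 5.96, 15.6 and 7.1 at ctrl_1h (7.13 ± 0.61, edgeR adjusted p = 2.79e-11; 7.75 without ctrl_1h C). At HT_2h it was at 73.1, 64, 54.1 and 33.9 against 1.77, 4.11, 1.44 and 3.54 (4.36 ± 0.61, adjusted p = 5.02e-06), and at HT_4h at 2.8 to 10.8 against 0.851 to 1.87 (adjusted p = 0.0671). HT and control ranges were apart at all 3 times, with the gap narrowing. Sevir.9G492400, named HSP70T-2 after a truncated HSP70 of Arabidopsis, was at 32.9, 30.4, 52 and 74.5 at HT_1h against 0, 1.25, 1.8 and 2.37 (5.19 ± 0.59, adjusted p = 2.58e-08). Its HT libraries were far above the control. At HT_2h it was at 13.3, 16.9, 4.95 and 2.98 against 1.77, 0, 0.576 and 0 (3.93 ± 0.67, adjusted p = 1e-04; 5.47 without ctrl_2h A). At HT_4h it was at 2.15, 2.57, 1.62 and 1.5, where the control libraries were under 3 counts, at least 2.71-fold higher, a call lost without ctrl_4h D or HT_4h B. Sevir.1G116600 was at 199, 178, 261 and 255 at HT_1h against 38.1, 23.5, 7.51 and 33.1 (3.13 ± 0.37, adjusted p = 7.62e-08), and it was up at HT_2h (1.85 ± 0.38), at HT_4h (1.57 ± 0.38) and at HL_4h (1.13 ± 0.38), the last being lost without ctrl_4h B or C or HL_4h D (0.90 to 1.01) and with the index as a term (0.87). All HT libraries of this gene were above or level with the highest control library of their hour.

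The HSP70 genes named for organelles rose in both treatments or in one of them. Sevir.3G256300 is named HSC70-7, which in Arabidopsis is a stromal HSP70 of the plastid, and was at 1570.1, 1401, 1287 and 1677 at HT_1h against 178, 207, 238 and 253 (2.76 ± 0.21, edgeR adjusted p = 8.29e-13). It was up at HT_2h (2.01 ± 0.20), HL_2h (1.65 ± 0.20) and HL_4h (1.03 ± 0.20), in each case with all treated libraries above the control. Sevir.2G266700 is named HSC70-5, a mitochondrial HSP70 in Arabidopsis, and was called by edgeR at the 3 HL times. It was at 35.2, 80.2, 44.3 and 45.5 at HL_1h against 21, 19.1, 19.8 and 14.2 (1.51 ± 0.25, adjusted p = 1.75e-05). At HL_2h it was at 54.7, 87.2, 94.1 and 94.1 against 11.9, 13.2, 8.93 and 11.7 (2.85 ± 0.25, adjusted p = 1.42e-11), and at HL_4h at 60.6, 43.9, 72.1 and 69.6 against 14.9, 15, 10.2 and 12.4 (2.22 ± 0.24, adjusted p = 3.46e-09). Every HL library was above every control library. Under HT its log2 fold change was 0.70 ± 0.24 at 1 h (adjusted p = 0.0578), 0.73 ± 0.25 at 2 h (adjusted p = 0.0537) and -0.41 ± 0.26 at 4 h (adjusted p = 0.331). Its HT_1h and HT_2h libraries nevertheless lay above all control libraries, at 22.8 to 38.3 and 15.2 to 27.4, and DESeq2 called both changes (adjusted p = 0.0479 and 0.0438).

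Sevir.9G455800, an HSP70 gene without a further name, had its highest levels under HL. It was at 299, 819, 557 and 609 at HL_1h against 93, 135, 195 and 132 (2.01 ± 0.35, edgeR adjusted p = 3.18e-05). At HL_2h it was at 439, 389, 491 and 514 against 78.1, 51, 34.3 and 72.1 (2.96 ± 0.35, adjusted p = 1.69e-08) and at HL_4h at 142, 108, 197 and 174 against 52.5, 48.3, 26.9 and 40 (1.88 ± 0.34, adjusted p = 4.35e-05). All HL libraries were above the control at each time. At HT_1h its range overlapped the control (1.08 ± 0.33, adjusted p = 0.0258), and that call was lost without ctrl_1h A, B or D or without 1 HT_1h library (0.84 to 1.08). Sevir.9G190400 rose at HL_1h (1.01 ± 0.29), HL_2h (1.27 ± 0.27) and HT_1h (1.42 ± 0.28) and fell at HT_4h (-0.83 ± 0.28), with the HL_1h call lost without HL_1h B (0.47) and the HT_4h call lost without any 1 of 7 libraries of that comparison (-0.87 to -0.69) and with the index as a term (-0.46).

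Other HSP70 genes moved in 1 treatment or by small amounts. Sevir.1G298600 rose at HT_1h, to 124, 97.5, 118 and 148 from 34.3, 14.7, 20.4 and 25.5 (2.36 ± 0.26, edgeR adjusted p = 1.59e-08), and at HT_2h (1.90 ± 0.27). Sevir.9G032700 is named HSP70-1, a cytosolic cognate in Arabidopsis, and ran the other way: at HT_4h it was at 16.4, 14.9, 19.2 and 17.1 against 45.7, 49.1, 30.9 and 42.4 (-1.32 ± 0.24, adjusted p = 0.000723). It had also fallen at HT_2h (-0.99 ± 0.25, adjusted p = 0.00682), a call lost without ctrl_2h B (-0.73). Sevir.3G020100 rose at HL_2h (1.00 ± 0.28) and HL_4h (0.81 ± 0.27), the latter lost without ctrl_4h A or B or HL_4h B or C (0.62 to 0.72). The neighbouring Sevir.3G108900 and Sevir.3G109000, both named HSP70-15 after an HSP110-type protein, rose at HT_1h (1.45 ± 0.16 and 1.01 ± 0.20) and at HL_2h (0.64 ± 0.15 and 0.73 ± 0.21). Sevir.3G108900 was also called up at HL_1h, a call lost without HL_1h B (0.46), and Sevir.3G109000 at HL_4h. Reads may be split between such neighbours, and their sum was 378 to 556 at HT_1h against 153 to 208 in the control and 209 to 247 at HL_2h against 117 to 160.2. At HL_4h the sum was 107 to 141 against 72.9 to 93.8.

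**Figure D3:**
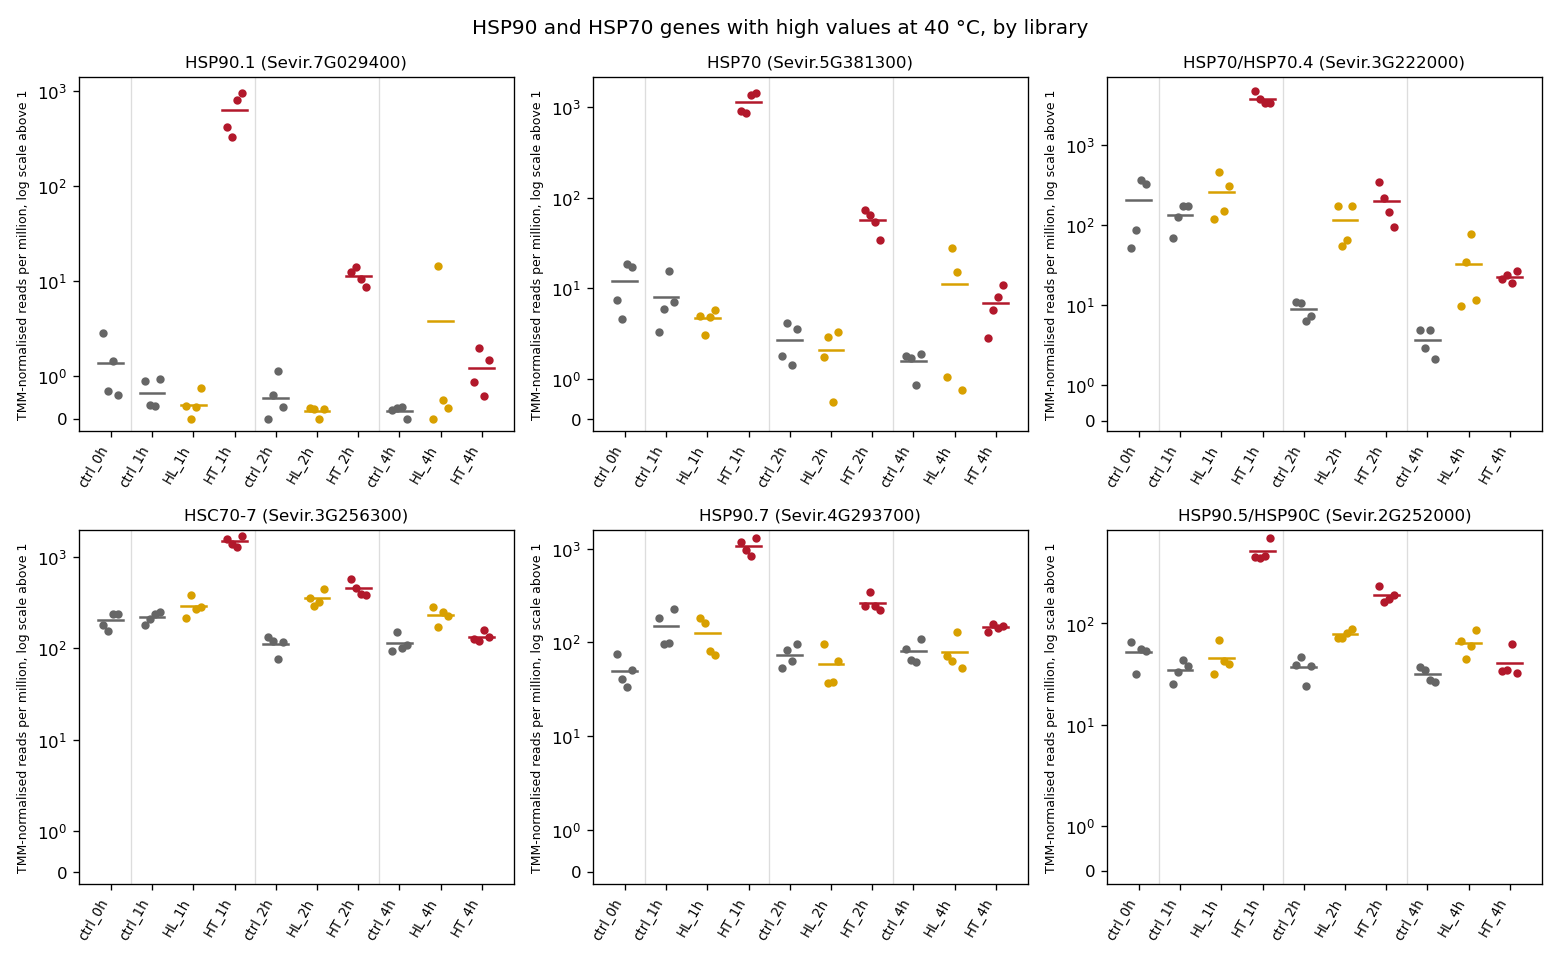
Levels in TMM-normalised CPM of genes with high values at 40 °C in each library (points) of the 10 conditions, with the mean as a line. HT_1h libraries lie far above those of ctrl_1h, for instance 3319 to 4769.7 against 69.7 to 173 for HSP70.4, and are closer to the control at HT_4h.

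HSP90.1 had the largest fold change of all members. In Arabidopsis HSP90.1 is the heat-inducible HSP90 of the cytosol. Sevir.7G029400, which has this name here, was at 411, 328, 804 and 933 at HT_1h, whereas every ctrl_1h library had at most 3 counts (0.886, 0.313, 0.3 and 0.946), so that it was at least 597-fold higher (edgeR adjusted p = 5.97e-13). At HT_2h it was at 12.5, 13.9, 10.5 and 8.68 against 0, 0.548, 1.15 and 0.272 (4.50 ± 0.82, adjusted p = 0.000279; 5.26 without ctrl_2h C). At HT_4h it was at 0.861, 2, 0.54 and 1.5 (adjusted p = 0.256). Under HL it was at 0 to 0.716 in all libraries but HL_4h B, where it was at 14.4. The call at HL_4h (4.30 ± 1.06, adjusted p = 0.0022) was lost without that library (0.33).

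Among other members HL_4h B was high for some and low for others. Sevir.5G381300 was at 27.7 in HL_4h B and 15.1 in HL_4h C against 1.04 and 0.725 in A and D, and its call at HL_4h (2.83 ± 0.68, edgeR adjusted p = 0.00168) had a log2 fold change of 1.82 without HL_4h B. The untested HSP70 gene Sevir.9G455400 had 47 reads (8.67 CPM) in HL_4h B, where no control library had more than 2 reads. It also reached 3.04 and 10.8 CPM in HT_1h C and D, so that HT_1h D was the highest in CPM. The summed level of the listed small heat shock proteins was 647, 631, 709 and 715 at HL_4h, so that HL_4h B was not high in this sum. Genes with many reads weigh most there: 12 of 29 tested genes were up at HL_4h, 10 of them at least 2-fold, while the ratio of means was 1.09. Single small heat shock protein genes were not compared by library. HSP70.4 was highest in HL_4h C, and HL_4h B had the lowest HSP90 sum (759) and the lowest HSP70 sum (2529) of the 4 libraries. Its HSP40 sum (1817) was the lowest as well. HL_4h B had the largest TMM factor of all libraries (1.467, against 1.138 to 1.245 in the other HL_4h libraries), which scales down every level in it.

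HSP90.4 is one of the cytosolic HSP90s of Arabidopsis, and 3 neighbouring genes have its name here. Sevir.6G207201, the gene with the highest mean of the class, was at 4139, 3254, 2400 and 3155 at HT_1h against 401, 493, 629.7 and 829 (2.46 ± 0.31, edgeR adjusted p = 2.32e-07) and at 825, 542, 629 and 853 at HL_2h against 157, 126, 76 and 129 (2.55 ± 0.31, adjusted p = 4.04e-08). Both ranges lay above the control, and the gene was also up at HT_2h (1.67 ± 0.30) and HL_4h (1.27 ± 0.30). Sevir.6G207050 rose at HT_1h (1.61 ± 0.28), HL_2h (2.07 ± 0.28) and HL_4h (0.97 ± 0.28). Sevir.6G207150 rose at HL_2h (0.53 ± 0.16) and HL_4h (0.51 ± 0.16) and had a log2 fold change of 0.05 ± 0.17 at HT_1h, with the first call lost without ctrl_2h C or HL_2h B or C and the other without ctrl_4h C or HL_4h D (0.41 to 0.45). Because reads can be split between copies, the sum of the 3 genes was also taken. It was 3612 to 6049 at HT_1h against 768 to 1561 (ratio of means 4.24) and 1190.1 to 1742 at HL_2h against 234 to 407 (ratio 4.35). The mean of this sum was 4769 of the 7346 CPM of the HSP90 class at HT_1h and 1497 of 1915 at HL_2h, but 283 of 569 at HT_4h, where HSP90.7 had the largest share of a single gene (25.4%).

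The HSP90 genes named for organelles differed in treatment. HSP90.7, the HSP90 of the endoplasmic reticulum in Arabidopsis, was Sevir.4G293700 and was at 1168, 977, 838 and 1307 at HT_1h against 183, 95.3, 99.7 and 226 (2.83 ± 0.32, edgeR adjusted p = 1.95e-08). By HT_2h it was at 246, 348, 242 and 221 against 53.3, 83.6, 63.1 and 95.8 (1.84 ± 0.31, adjusted p = 8.81e-05). Its HL libraries overlapped the control at each time, with log2 fold changes of -0.09 ± 0.32, -0.34 ± 0.31 and -0.01 ± 0.30. HSP90.6, mitochondrial in Arabidopsis, was Sevir.3G367200 and rose in both treatments. It was at 25, 99.1, 55.6 and 68.8 at HL_1h and 55.5, 56.4, 45.3 and 83.3 at HT_1h against 12.7, 16, 18.9 and 14.7 (1.94 ± 0.29 and 1.94 ± 0.28). At HL_2h it was at 99.9, 95.9, 144 and 132 (2.81 ± 0.28) and at HT_2h at 37.3, 27.7, 29 and 35.3 (0.94 ± 0.28) against 23.2, 15.9, 11.5 and 16.6, the latter call being lost without ctrl_2h B, C or D or HT_2h A (0.79 to 0.93). At HL_4h it was still up (1.76 ± 0.27), and HL libraries were above the control throughout.

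Both genes named HSP90.5, which is the plastid HSP90 of Arabidopsis, rose, with the larger change in different treatments. Sevir.2G252000 was at 458, 445, 468 and 706 at HT_1h against 25.1, 33.2, 43.6 and 38.3 (3.89 ± 0.26, edgeR adjusted p = 9.38e-14), up at HT_2h (2.38 ± 0.25) and less so at HL_2h (1.08 ± 0.24) and HL_4h (1.04 ± 0.24). Sevir.6G197700 rose at HL_1h (1.14 ± 0.31), HL_2h (1.93 ± 0.28), HL_4h (1.34 ± 0.27) and HT_1h (1.43 ± 0.29), with the HL_1h call lost without HL_1h B (0.61). Of the HSP90 genes with no further name, Sevir.4G282600 rose at HT_1h (2.85 ± 0.25) and HT_2h (1.94 ± 0.25), Sevir.6G182500 at HT_1h (1.83 ± 0.24) and HT_2h (0.94 ± 0.25), and Sevir.1G090600 at HT_1h (1.54 ± 0.30) and HL_2h (1.64 ± 0.33). Neither edgeR nor DESeq2 called Sevir.4G282600 or Sevir.6G182500 under HL.

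The HSP40 co-chaperones changed in both directions and mostly by less than the HSP70 and HSP90 genes. Sevir.1G170200, the DNAJ gene with the highest mean of its class, rose at the first HL time. It was at 955, 1123, 868 and 756 at HL_1h against 476, 423, 497 and 513 (1.04 ± 0.16, edgeR adjusted p = 2.52e-06), with no overlap, and was not called at the later HL times. Sevir.9G062400 rose at HT_1h, to 695, 591, 663 and 642 from 244, 387, 323 and 176 (1.20 ± 0.20, adjusted p = 5.44e-05), and at HL_2h, to 304, 264, 315 and 373 from 151, 132, 107 and 128 (1.28 ± 0.20, adjusted p = 5.63e-06). It was also up at HT_2h (0.94 ± 0.20) and at HL_4h (0.64 ± 0.20), the latter lost without ctrl_4h C or HL_4h C (0.57). Sevir.4G013100 had the largest HSP40 rise at HT_1h, to 30.8, 27.5, 42 and 50.1 from 10.9, 9.09, 13.8 and 12.3 (1.70 ± 0.22, adjusted p = 2.76e-07), and was up at HT_2h (1.46 ± 0.22) and HL_2h (1.03 ± 0.22), while its HL_4h call (0.59 ± 0.22) was lost without any 1 of the 8 libraries (0.50 to 0.65) and with the index as a term (0.51). Sevir.5G330900 rose by small amounts at HL_1h (0.91 ± 0.14), HL_2h (0.47 ± 0.13), HT_1h (0.43 ± 0.13), HT_2h (0.52 ± 0.13) and HT_4h (0.59 ± 0.13), with the HT_1h call lost without ctrl_1h C, HT_1h D or 1 further HT_1h library (0.37 to 0.40).

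Other HSP40 genes were called up by edgeR at HL_2h and HL_4h. Sevir.1G117300 was at a mean of 625 at HL_2h against 307 and of 437 at HL_4h against 222 (1.02 ± 0.18 and 0.98 ± 0.18). Sevir.1G185000 was at 37.3 against 15.1 and 39.4 against 13.3 at these times (1.30 ± 0.28 and 1.57 ± 0.28). For both genes the HL libraries lay above the control libraries. Under HT edgeR called neither, while DESeq2 called Sevir.1G117300 up at HT_4h (adjusted p = 0.026).

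The HSP40 genes that fell under HL included several that edgeR did not call down under HT. Sevir.6G218600 was at 50.6, 51.6, 32.9 and 40.8 at HL_1h against 70.3, 84, 56.8 and 61 (-0.60 ± 0.19, edgeR adjusted p = 0.0251), a call lost without ctrl_1h B or 1 HL_1h library (-0.50 and -0.42). At HL_2h it was at 16.3, 16.2, 17.3 and 20.7 against 56.4, 64.7, 47.5 and 43 (-1.58 ± 0.19, adjusted p = 1.7e-08), and at HL_4h at 19, 14, 14.2 and 17.9 against 29.2, 37.8, 46.5 and 41.2 (-1.25 ± 0.19, adjusted p = 2.41e-06). All HL libraries were below the control, whereas its log2 fold changes under HT were -0.29 ± 0.18, 0.00 ± 0.18 and 0.47 ± 0.18. Sevir.3G067600 fell at HL_2h, to 214, 131, 88 and 199 from 282, 429, 387 and 309 (-1.15 ± 0.26, adjusted p = 0.00081), and at HL_4h (-1.16 ± 0.26). At HT_4h it rose, to 501, 666, 539.6 and 552 from 175, 260.1, 378 and 300.5 (1.02 ± 0.26, adjusted p = 0.0105), and that call was lost with the second index as a term (0.74). Sevir.7G200900 fell at HL_2h (-1.20 ± 0.16) and HL_4h (-0.83 ± 0.16) and rose at HT_4h (0.66 ± 0.16). Sevir.4G304500 fell at HL_1h (-1.94 ± 0.54) and HL_2h (-1.45 ± 0.37), and rose at HT_4h (1.10 ± 0.33), where the call was lost with the index as a term (0.91) and without ctrl_4h B or D or HT_4h B or D (0.95 to 1.16), as was the HL_1h call without HL_1h A (-1.59). Sevir.9G490200 fell at HL_2h (-1.18 ± 0.46), a call lost without ctrl_2h A, B or D or HL_2h B or C (-1.25 to -0.98) and with the index as a term (-1.06).

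Among the HSP40 genes called at HT_4h were 2 whose values rest on few libraries. Sevir.2G218500 was at 5.38, 18.6, 19.2 and 40.4 at HT_4h against 5.03, 0.245, 1.7 and 0.234 (3.42 ± 0.93, edgeR adjusted p = 0.0154). The call was lost without ctrl_4h B or D or HT_4h D (2.92 to 3.07) and with the index as a term (2.08), and the value was 4.86 without ctrl_4h A. Sevir.4G128800 rose at HL_2h (0.90 ± 0.30), a call lost without ctrl_2h A or HL_2h C, and at HT_4h (0.92 ± 0.30), a call lost without ctrl_4h A, B or C (0.82 to 0.97) and without HT_4h D (0.28) and with the index as a term (0.83).

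The DNAJ gene Sevir.7G078100 had reads that appeared with time in control leaves. It was at 0 in every ctrl_0h library, at 0.505, 1.1, 1.44 and 0.272 at ctrl_2h and at 19.9, 4.91, 5.67 and 3.98 at ctrl_4h, at least 6.09-fold higher than at ctrl_0h (edgeR adjusted p = 1.78e-06), or at least 3.43-fold without ctrl_4h A. At HL_4h it was at 2.86, 2.4, 2.4 and 3.14, below the control (-1.68 ± 0.53, adjusted p = 0.018), and at HT_4h at 0.646, 0.286, 1.62 and 0.898 (-3.29 ± 0.62, adjusted p = 0.0012). DESeq2 gave this HT_4h change no adjusted p. Library ctrl_4h A was far above the other control libraries, and without it the HL_4h value was -0.87 and lost its call, whereas the HT_4h value was -2.44 and kept it. The HL_4h call was also lost with the index as a term (-1.52). The summed reads of this gene and its neighbours Sevir.7G078000 and Sevir.7G078050 overlapped the control in all 6 treated conditions.

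The single HSP100 gene, Sevir.6G103400, is named HSP104 after the disaggregase of yeast. It was at 40.4, 33.4, 33.5 and 25.7 at HT_1h against 22.4, 29.5, 23.4 and 16.6 (0.53 ± 0.20, edgeR adjusted p = 0.0866). In the 6 treatment contrasts edgeR and DESeq2 called it 0 times, and its unadjusted p was under 0.05 in 1 of them, at HT_1h. At HT_2h it was at 24.3 to 33 against 21.8 to 23.9 in the control, with no overlap (log2 fold change 0.26). Its levels at the remaining treated times lay between 12.1 and 35.5. In the comparison of HL with HT below it was called at 2 h.

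**Figure D4:**
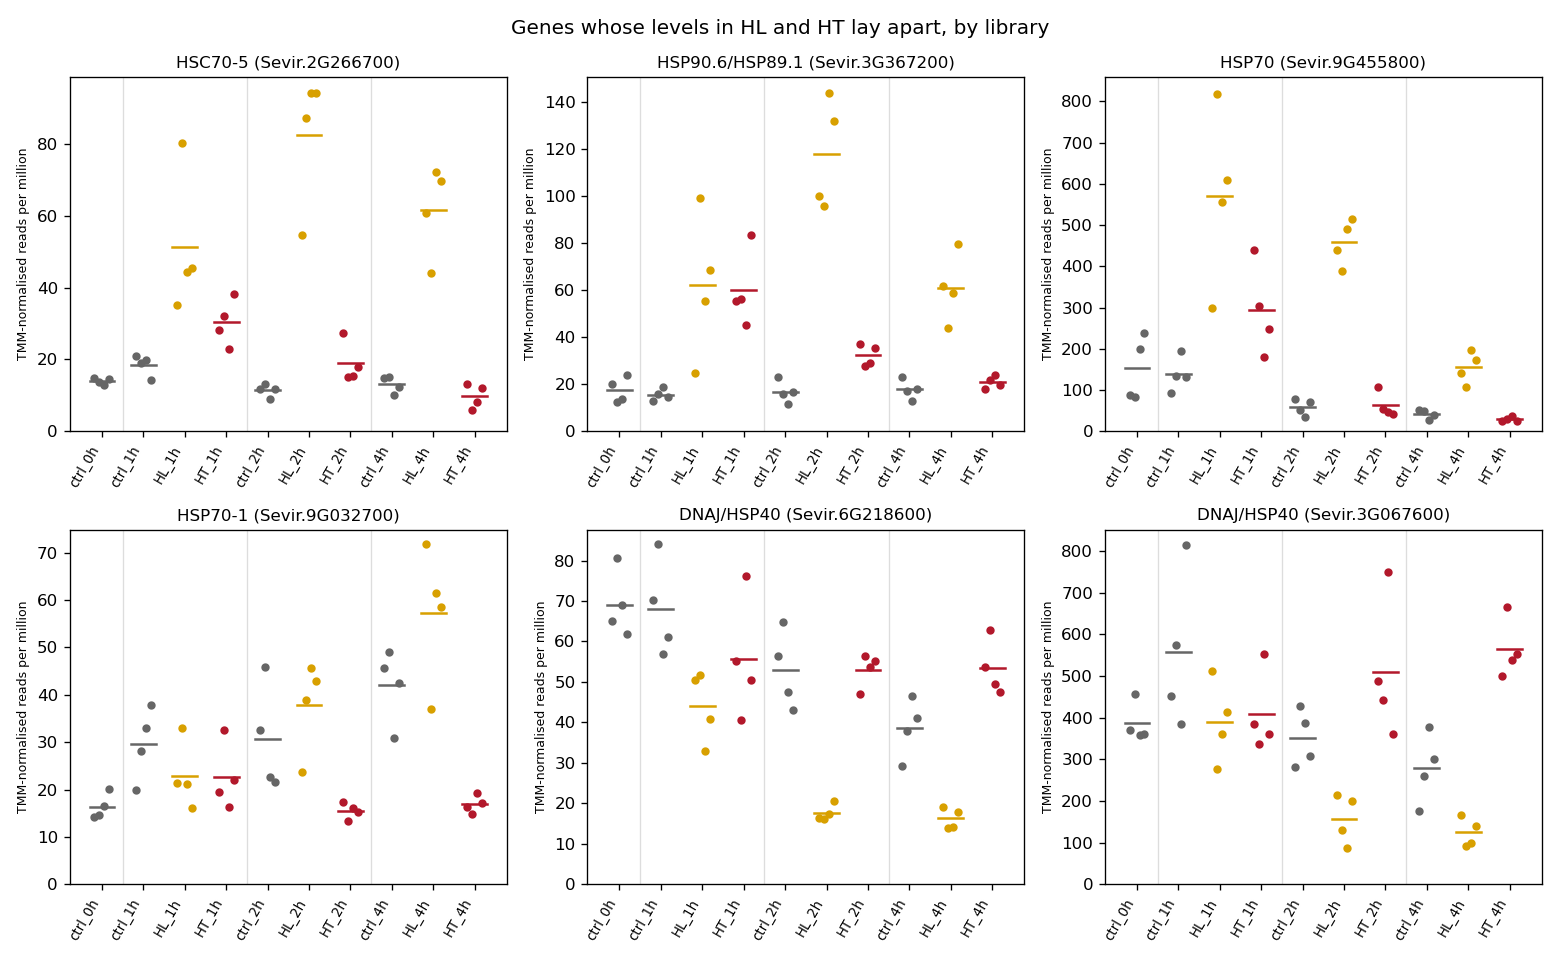
Levels in TMM-normalised CPM of 6 members in each library (points) of the 10 conditions, with the mean as a line. HSC70-5, HSP90.6 and Sevir.9G455800 were higher at HL_2h and HL_4h than at HT_2h and HT_4h, as was HSP70-1, while both DNAJ genes were lower.

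HL and HT libraries of the same hour were also compared with each other, which uses no control library. At 1 h 8 members were higher in HL (13.6%, background 14%) and 19 were lower (32.2%, background 13%). At 2 h 23 were higher (39%, background 21.2%) and 15 lower (25.4%, background 19.3%). At 4 h 19 were higher (32.2%, background 19.6%) and 11 lower (18.6%, background 16.1%). The share higher at 1 h and that lower at 4 h were thus close to those of all genes. The HSP90 class turned from 0 higher and 7 lower in HL at 1 h to 6 higher and 4 lower at 2 h and 6 higher and 2 lower at 4 h, and the HSP70 class from 3 and 8 to 9 and 4 and then 9 and 0. The HSP40 class had 5 and 4 (16.7 and 13.3%, close to all genes), 8 and 6 (26.7 and 20%), and 4 and 9 (13.3 and 30%). HSP104 was called lower in HL at 2 h (edgeR log2 difference -0.57, DESeq2 adjusted p = 0.0128) and was not called by edgeR at 1 or 4 h. With library totals in place of TMM the 2 h split was 26 higher and 11 lower and the 4 h split 28 higher and 5 lower. All genes moved with that scaling, from 3027 higher and 2752 lower to 3581 and 2050 at 2 h and from 2799 and 2303 to 3759 and 1359 at 4 h.

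At 1 h the largest differences were in the strongly heat-induced genes. HSP90.1 was at least 726-fold lower in HL_1h than in HT_1h, and log2 differences (HL minus HT) were -8.04 ± 0.73 for Sevir.5G381300, -6.09 ± 0.71 for HSP70T-2 and -3.97 ± 0.63 for HSP70.4. HSP90.7 was lower in HL at all 3 times (-2.92 ± 0.36, -2.18 ± 0.31 and -0.86 ± 0.30). HSC70-5 was higher in HL at all 3 times (0.81 ± 0.25, 2.12 ± 0.24 and 2.64 ± 0.25), and so was Sevir.9G455800 (0.93 ± 0.34, 2.87 ± 0.35 and 2.43 ± 0.35). HSP90.6 had a log2 difference of -0.001 ± 0.28 at 1 h (adjusted p = 0.999), where both treatments raised it by 1.94, and was higher in HL at 2 h (1.87 ± 0.26) and at 4 h (1.56 ± 0.27).

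The change of each treatment effect between 1 and 4 h was tested as well. The signed HT effect became lower in 16 members (27.1%, background 2.69%) and higher in 3 (5.08%, background 2.34%). The 16 comprised 7 of 17 HSP70, 8 of 11 HSP90 and 1 of 30 HSP40 genes. The HT effect changed by -5.08 ± 1.05 in Sevir.5G381300, by -3.50 ± 0.35 in Sevir.2G252000 (HSP90.5) and by -2.52 ± 0.28 in HSC70-7. The 3 that became higher were the DNAJ genes Sevir.4G128800, Sevir.3G067600 and Sevir.9G149400. All 3 had a negative log2 fold change at HT_1h and a positive one at HT_4h. Sevir.9G149400 was the member called down at HT_1h and was not called at HT_4h (DESeq2 log2 fold changes -0.90 and 0.34). Its HT_1h call by edgeR was lost without ctrl_1h D (-0.66) or 1 HT_1h library (-0.71). The signed HL effect became higher in 1 member (1.69%, background 2.08%) and lower in 3 (5.08%, background 2.24%). The 3 were the HSP40 genes Sevir.1G170200, Sevir.1G259200 and Sevir.5G330900, and the 1 was Sevir.5G381300, whose HL_4h level rests on 2 libraries. Sevir.1G259200 changed sign (DESeq2 log2 fold change 0.33 at HL_1h and -0.56 at HL_4h). EdgeR called it down at HL_4h only, a call lost with library totals in place of TMM (-0.27).

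Control leaves changed over the same hours. The tests count ctrl_0h C and D as separate libraries although their values were nearly alike. Against ctrl_0h 4 members were up at ctrl_1h (background 3.92%) and 0 were down (2.07%), by edgeR and by DESeq2, with 5 down at an unadjusted p under 0.05, and the 4 calls became 2 without ctrl_0h B, C or D or ctrl_1h D. At ctrl_2h 4 were up (6.78%, background 4.81%) and 10 down (16.9%, background 3.76%), which made 14 calls, or 7 without ctrl_0h D and 9 without ctrl_2h C or D. At ctrl_4h 14 were up (23.7%, background 19.7%) and 20 down (33.9%, background 17.6%). Those down at ctrl_4h were 7 HSP70, 4 HSP90, 8 HSP40 genes and HSP104, and those up were 5, 1 and 8 genes of the first 3 classes. HSP70.4 was at 51.9, 87.1, 362 and 327 at ctrl_0h and fell at ctrl_2h (log2 fold change -4.53 ± 0.61, edgeR adjusted p = 2.34e-06) and at ctrl_4h (-5.79 ± 0.67, adjusted p = 8.06e-09). Sevir.6G207201 fell at ctrl_2h (-1.62 ± 0.30) and ctrl_4h (-1.59 ± 0.30), HSP104 fell at ctrl_2h (-0.61 ± 0.20) and ctrl_4h (-1.04 ± 0.20), and HSP70-1 rose at ctrl_1h (0.87 ± 0.26), ctrl_2h (0.92 ± 0.26) and ctrl_4h (1.38 ± 0.25). HSP90.7 rose at ctrl_1h (1.57 ± 0.32), to 95.3 to 226 from 33.7 to 74.8. Time of day and hours in the chamber cannot be told apart in these libraries.

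**Figure D5:**
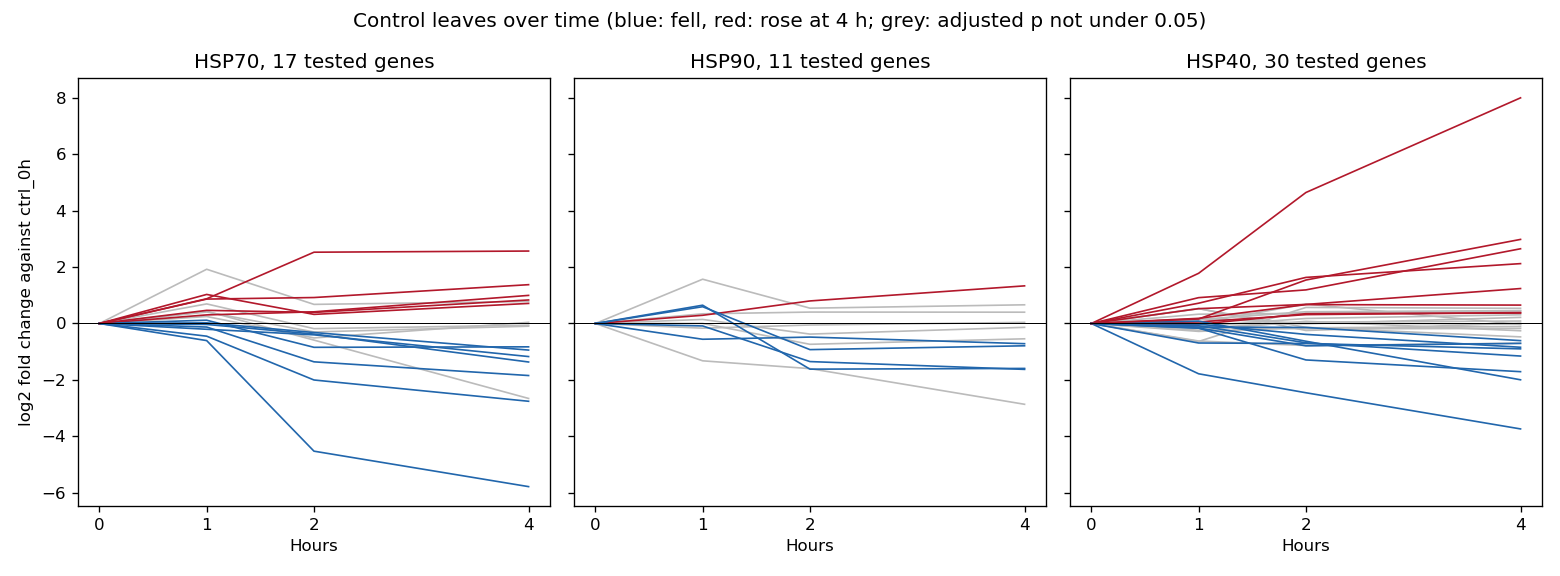
Log2 fold change of each tested HSP70, HSP90 and HSP40 gene in control leaves against ctrl_0h (vertical axis) by hour (horizontal axis), with genes called up at 4 h in red, called down in blue and others in grey. The lowest line is HSP70.4, at -5.79 at 4 h, and the highest Sevir.7G078100, at 8.01 in the fit against a group with no reads.

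Heat shock transcription factors and small heat shock proteins, listed by the study, were set beside these genes. Of 10 tested heat shock transcription factor genes 4, 3 and 1 were up at HT_1h, HT_2h and HT_4h (40, 30 and 10%, where 5.07, 5.38 and 4.22% of all genes were up) and 4, 5 and 2 at the HL times (40, 50 and 20%, where 9.29, 16.5 and 13.5% were up). Of 29 tested small heat shock protein genes 23, 19 and 8 were up at the HT times (79.3, 65.5 and 27.6%). At the HL times 0, 5 and 12 were up (0, 17.2 and 41.4%), of which the share at HL_2h was close to that of all genes. Their summed level was 5885, 4895, 10329 and 13346 at HT_1h against 567 to 898 at ctrl_1h (ratio of means 12.3). At HL_2h it was 518 to 736 against 455 to 543, which overlapped the control.

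Across the 6 treatment contrasts 49 of the 59 tested members were called at least once and 10 were not, where 55% of all tested genes were called at least once in either direction. Of the 129 calls, 111 had treated and control libraries whose ranges did not overlap, and 31 were lost when some 1 library was left out. These shares were not taken over all called genes and so show nothing particular to the members.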

How the data were processed

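RNA was read with a 3′ tag kit (QuantSeq). Per the paper and the submitters' processing notes, the authors trimmed reads with Trim Galore 0.6.2 and estimated transcript abundances with Salmon 1.1.0. The authors deposited a count table of estimated counts rounded to whole numbers, and a file per library whose values the authors call TPM. By their values the latter are deposited CPM, the count over the library total with no gene length, and 96 to 97.2% of values were whole reads.

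Of the 40 count columns 1 was not used because its header and values name different conditions, and 4 were used by condition only. Tests used 39 columns in R 4.3.3 with edgeR 4.0.16 (TMM, quasi-likelihood, Benjamini-Hochberg adjustment over 14293 genes, adjusted p under 0.05, no fold minimum). Genes needed 10 counts in 4 libraries. Levels came from the 40 per-library files, and columns matched their files within rounding. A group with at most 3 counts in each library gave a lower bound of the fold change. The test was checked on simulated data.

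Genes named are Sevir.3G222000 and Sevir.7G078100, members called in a treatment contrast with a log2 fold change of at least 1 in size, the highest mean of each class, members called in both treatments, and neighbouring copies. Members and lists were chosen with earlier results of these data known. Alternatives were DESeq2 1.42.0 and its size factors in edgeR, library totals, no filter, reads of the per-library files, a replicate block, the second index as a term (fitted on the per-library reads, which carry every index) and leaving out each library. Sequences and coordinates were not analysed here.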

Additional observations from a re-analysis of the deposited data

Results flagged for a closer look

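In 15 of 248 groups of 4 libraries examined 1 library was set apart from the other 3 by a gap rule. The rule sets apart about 1 in 20 groups of independent normal values. These groups share libraries and genes, and some hold only 0 or 1 reads, so the share cannot be set against that figure. Whether it exceeds chance was not tested. For Sevir.7G078100 at ctrl_1h and HL_1h and HSP90.1 at HL_2h the gap was 1 read. Sevir.7G078100 was at 0.3 in ctrl_1h C, 0.27 in HL_1h C and 1.06 in HT_2h B with the others at 0, and at 19.9 in ctrl_4h A against 3.98 to 5.67. HSP90.1 (Sevir.7G029400) was at 14.4 in HL_4h B against 0 to 0.437 and at 0 in HL_2h C against 0.223 to 0.247. Sevir.2G252000 (HSP90.5) was at 706 in HT_1h D against 445 to 468 and at 62.9 in HT_4h C against 32.6 to 34.9, and the HSP90 sum was 618 in HT_4h C against 547 to 556. Sevir.3G067600 was at 458 and Sevir.1G170200 at 364 in ctrl_0h B, against 358 to 369.6 and 479.7 to 503. Sevir.1G116600 was at 62.9 in HT_2h D, Sevir.9G062400 at 334 in HT_2h A, Sevir.5G381300 at 0.851 in ctrl_4h C and the HSP40 sum at 2533 in ctrl_2h B.

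The HT effect differed between 4 and 1 h in 19 members by the edgeR test of that difference. The log2 differences (4 h minus 1 h) were -5.08 in Sevir.5G381300, -3.50 in Sevir.2G252000, -2.53 in Sevir.4G282600, -2.52 in Sevir.3G256300, -2.38 in Sevir.6G207050, -2.35 in Sevir.6G207201, -2.25 in Sevir.9G190400 and -1.98 in Sevir.4G293700. They were -1.74 in Sevir.3G367200, -1.63 in Sevir.9G455800, -1.60 in Sevir.6G197700, -1.59 in Sevir.1G298600, -1.53 in both Sevir.3G338300 and Sevir.6G182500, -1.40 in Sevir.3G108900 and -1.34 in Sevir.4G013100. In the DNAJ genes Sevir.9G149400, Sevir.3G067600 and Sevir.4G128800 they were 1.22, 1.46 and 1.66. The HL effect differed in 4 members, by -1.17 in Sevir.1G170200, -0.91 in Sevir.1G259200, -0.70 in Sevir.5G330900 and 3.74 in Sevir.5G381300.

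Among members with too few reads to be tested, Sevir.9G455400 had 47 reads in HL_4h B (at most 2 in any control library), Sevir.2G240700 had 16 in HL_4h D (at most 8) and Sevir.1G099900 had 12 in HL_4h B (at most 10).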

How the results depend on the processing

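No called fold change of a named member turned its direction under the alternatives run. Most counts stayed within 1.5 times. With library totals only, the members whose HL effect changed between 1 and 4 h went from 4 to 7, those called at ctrl_1h from 4 to 2, and the HT_4h split was 13 up and 3 down, with the median of all genes shifted to 0.129 at HL_2h and 0.377 at HL_4h. Without the low-count filter 1 member was down at HL_1h, and DESeq2 and the index term each gave 2 down at HT_1h. Leaving out 1 library gave 1 to 2 members down at HL_1h (1 without ctrl_1h B, HL_1h A or another HL_1h library), 0 to 1 down at HT_1h (0 without ctrl_1h D or an HT_1h library), 0 to 2 down at HT_2h (0 without ctrl_2h B, 2 without HT_2h B), 2 to 5 down at HT_4h (2 without HT_4h B or D), 2 to 4 with a changed HL effect (2 without ctrl_1h C or HL_4h B), 2 to 4 called at ctrl_1h and 7 to 13 called at ctrl_2h. With a replicate block on the per-library reads, members up and down were 9 and 2, 27 and 5, and 24 and 6 at the HL times and 23 and 1, 16 and 1, and 9 and 3 at the HT times, and the calls of Sevir.4G128800 (0.86) and Sevir.9G190400 (-0.85) at HT_4h, Sevir.4G013100 at HL_4h (0.59) and Sevir.9G490200 at HL_2h (-1.15) were lost. Same-lettered libraries shared only a letter (correlation of deviations -0.222 to 0.245, with 0 of 6 contrasts over 0.1 in every pair). The count test on the reads recovered from the 40 files called 712 genes up and 751 down at HT_1h. In the 6 treatment contrasts DESeq2 gave no adjusted p for 2 member results, Sevir.2G227500 and Sevir.7G078100 at HT_4h. Levels under 3 counts, as for HSP90.1 in controls, are limited by depth, and the causes of these shifts were not tested.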
